A study of Mus musculus with 24 samples.

Results

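The comparison described here set small intestinal organoids taken 24 h after 6 Gy of gamma radiation against organoids of the same age that were not irradiated. It used 8 of the 24 samples of the study, 4 irradiated and 4 control, chosen by their labels alone. Organoids are three-dimensional epithelial cultures grown from crypts, and these came from small intestine of C57BL/6 mice with no engineered allele named. All of them grew in a medium with EGF (50 ng/ml), conditioned media with Noggin (20%) and R-spondin (10%), B-27, N-2 and n-acetyl cysteine, and the dose was given 3 days after reseeding. The other 16 samples, controls and irradiated organoids at 48 and 96 h, entered the estimate of the spread and the comparison with later times. The number of mice is not stated, nor whether replicates were separate cultures, so the p-values reflect only how far these samples spread, possibly for technical reasons. The 8 arrays shared 1 chip, with controls on positions A to D and irradiated samples on positions E to H, so irradiation and chip position cannot be told apart.

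Crypts of the small intestine hold Lgr5-positive stem cells between Paneth cells, and their progeny divide quickly before they become absorptive enterocytes or secretory goblet, enteroendocrine and tuft cells. Ionizing radiation breaks DNA, and the protein kinases that sense the breaks stabilize p53, a transcription factor whose targets halt the cell cycle, repair DNA or start apoptosis. After injury the crypt epithelium is known to take up a transient fetal-like state, marked by Ly6a and annexins and fed by EGF receptor ligands and YAP, before stem cells return.

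Illumina mouse BeadChips measured the transcripts, each through the brightness of 1 or more probes. Levels are normalized log2 units, and a fold change compares a gene with itself only, because levels of different probes cannot be set against each other. Where a probe was above background on only some arrays of a group, the size of its change leans on levels near background, and the number of arrays is given. Of 10798 genes tested, 1200 (11.1%) were called higher and 1350 (12.5%) lower in irradiated organoids at a limma adjusted p under 0.05. At least 2-fold were 297 genes higher (2.75%) and 98 lower (0.908%). The values of the groups did not overlap for 3105 genes (28.8%), and the median log2 fold change over all genes was -0.04. In bulk RNA fewer cells of a type and less RNA per cell cannot be told apart, and that holds for every result below.

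Irradiated replicates 3 and 4 stood apart from the other arrays. They had 9738 and 10783 detected probes, against 12941 and 12415 for irradiated replicates 1 and 2 and 12535 to 13551 for the controls. The first principal component (52.7% of the variance) separated the irradiated arrays from the controls, and replicates 3 and 4 lay farthest out at 39.3 and 28.2, against 13.1 and 14.2 for replicates 1 and 2. The means were 13012 ± 485 detected probes in controls and 11469 ± 1475 in irradiated samples (SD, n = 4 each), a difference of -1543 with p = 0.114 in an exact permutation test (two-sided, all 70 splits of the arrays). The exact p was 0.0286 with a detection limit of 0.01 (-2061) and also without irradiated replicate 1 (-2034). Without replicates 3 and 4, a choice made after seeing the data, 838 genes were higher and 616 lower, and counts without them are given below for most gene groups. Median scaling of the arrays in place of quantile normalization moved the median over all genes to -0.44 and gave 464 genes higher and 4921 lower, and cyclic loess gave 1480 and 681. Directions below are those after quantile normalization, and gene groups whose median changed sign with median scaling are named. Of 171 called genes named below, 33 were not called with median scaling.

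**Figure D1:**
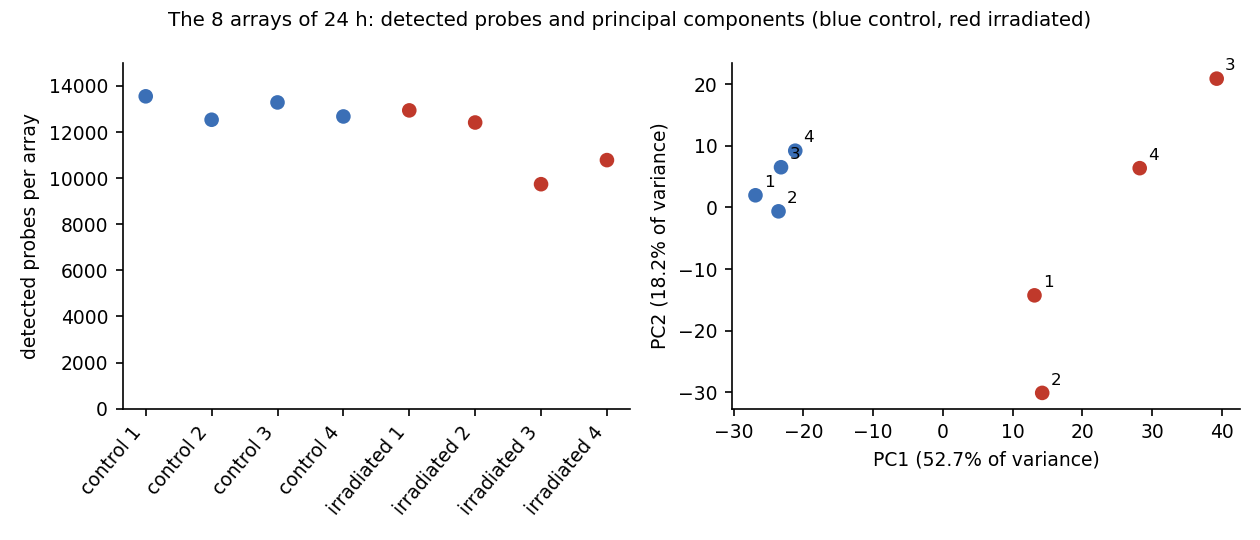
Detected probes (left, count of 25697 probes) and the first 2 principal components (right) of the 8 arrays at 24 h, with replicate numbers beside the points. Irradiated replicates 3 and 4 have 9738 and 10783 detected probes and lie farthest from the controls on the first component.

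All 7 epithelial markers on the array, among them Cdh1 (E-cadherin), Vil1 (villin), Krt8 and Cdx2, were detected on all 8 arrays, and their summed linear level was 15821 to 17862 in controls and 16966 to 18981 in irradiated samples. Markers of other cell types were mostly dark. Of 10 mesenchymal markers only Acta2, smooth muscle actin, was detected, while Col1a1, Col1a2, Col3a1, Pdgfra and Pdgfrb were not on any array, and summed mesenchymal levels ran from 998 to 1375 in controls and 1441 to 1580 after irradiation. Ptprc, Csf1r and Cd68 among 8 immune markers, Cdh5 and Kdr among 7 endothelial markers and all 5 erythroid markers were likewise not detected. Summed immune levels ran from 239 to 253 in controls and 236 to 355 after irradiation, endothelial levels from 186 to 197 and 181 to 297, neural levels from 138 to 152 and 161 to 227, and erythroid levels from 120 to 138 and 133 to 156. Markers tested in the immune and endothelial lists numbered 2 each, and 1 of each was called higher. Cd8a, a T cell coreceptor gene, was at 0.69 (adjusted p = 0.0407). It was above background on 3 of the 4 irradiated arrays, and the values of the groups overlapped. It was not called without control replicate 2, control replicate 3, control replicate 4, irradiated replicate 1, irradiated replicate 2 or irradiated replicate 3 (0.57, 0.73, 0.70, 0.58, 0.59 and 0.58). Tek, an endothelial receptor gene, was at 0.94 (adjusted p = 0.0237), with levels above background on 1 control and 2 irradiated arrays, and was not called without control replicate 1, control replicate 3, control replicate 4, irradiated replicate 2 or irradiated replicate 3 (0.85, 0.89, 0.91, 0.74 and 0.70), nor without irradiated replicates 3 and 4 together (0.64). Apart from that of Acta2, these sums were made up mainly of probes below detection, and their part in the results was not tested.

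Targets of p53 were mostly higher at 24 h. Of 14 tested p53 targets that halt the cell cycle or feed back on p53, 11 rose and 1 fell, with a median log2 fold change of 0.80, and 8 rose and 0 fell without irradiated replicates 3 and 4. Cdkn1a, which encodes the cyclin-dependent kinase inhibitor p21, stood at 8.91, 9.01, 9.15 and 8.85 on the control arrays and 10.14, 10.10, 10.15 and 10.05 on the irradiated arrays. All irradiated samples lay above all controls, and the gene rose 2.18-fold (1.13 log2 units, SE 0.12, adjusted p = 2.34e-07). Plk2, a damage-induced polo-like kinase gene, rose 4.77-fold, from 6.16, 5.88, 5.95 and 6.20 in controls to 8.46, 8.19, 8.29 and 8.27 after irradiation. That was the largest change of the group, and all irradiated values were again separate from the controls.

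Trp53inp1 (p53 cofactor, 2.90-fold), Zmat3 (RNA-binding protein, 2.49-fold), Ccng1 (cyclin G1, 2.18-fold) and Sesn2 (sestrin 2, a brake on growth signalling, 1.94-fold) rose by similar amounts. For Sesn2 a second probe was at 0.25 and not called (adjusted p = 0.371 over all probes). Mdm2, the ubiquitin ligase that returns p53 to low levels, rose by 0.88 (SE 0.14). Its relative Mdm4 was not called on its brightest probe (0.28, adjusted p = 0.230), but was on 1 of 2 others (0.40, adjusted p = 0.0469 over all probes). The p53 pathway phosphatase gene Ppm1d was not called (-0.37, adjusted p = 0.307). The transcript of Trp53 itself moved the other way: it stood at 8.35, 8.24, 8.47 and 8.28 on the control arrays and 7.75, 7.94, 7.88 and 7.46 on the irradiated arrays, with no overlap, and fell by 0.58 (SE 0.15, adjusted p = 0.00601). Rises of Sesn1 (0.51) and Btg2 (0.46), a sestrin and an antiproliferative gene, turned into small values below 0 with median scaling. Trp53 and Sesn1 were not called without irradiated replicates 3 and 4 (-0.49 and 0.44, adjusted p = 0.0725 and 0.0605).

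Of 11 p53 targets that act in cell death, 8 rose and 0 fell (median 0.74; 6 rose without replicates 3 and 4). Eda2r, a receptor of the tumour necrosis factor family, stood at 6.32, 6.12, 6.36 and 6.13 on the control arrays and 8.0, 7.99, 7.81 and 8.33 on the irradiated arrays and rose 3.48-fold. No irradiated value was within 1 unit of a control. Bbc3 (PUMA, a BH3-only activator of apoptosis) rose 2.20-fold, the death receptor genes Fas and Tnfrsf10b 1.98-fold and 1.68-fold, and the effector Bax 1.71-fold. Of the other probes 1 of 2 for Fas and 2 of 4 for Tnfrsf10b were not called (0.37, 0.47 and 0.50, adjusted p = 0.333, 0.103 and 0.177 over all probes). Fas was above background on 3 of the 4 irradiated arrays. Pmaip1 (NOXA, 0.10, adjusted p = 0.781) and the apoptosome gene Apaf1 (-0.04, adjusted p = 0.795) were not called. Across 14 genes of the BCL2 family 4 rose, namely Bbc3, Bax, Bok (0.78) and Bad (0.45, which was below 0 with median scaling), and 1 fell. The one that fell was Bcl2, an inhibitor of apoptosis, by 0.66 (SE 0.14, adjusted p = 0.00144), but its other detected probe was at 0.04 (adjusted p = 0.889 over all probes). The family's median was 0.12, and -0.24 with median scaling. Bcl2l1, Mcl1 and Bcl2l2, which also protect cells, were not called, with values of 0.28, 0.16 and -0.03. Bcl2 and Bad were not called without irradiated replicates 3 and 4 (-0.43 and 0.40, adjusted p = 0.0788 and 0.0771).

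The repair and metabolic branch of the p53 targets was divided. Of 17 genes 7 rose and 3 fell, with a median of 0.26 (-0.30 with median scaling). Phlda3, whose product restrains Akt, rose 3.52-fold, from 5.32, 5.95, 5.72 and 5.94 to 7.44, 7.56, 7.62 and 7.58. Psrc1, a spindle-associated gene, rose 2.99-fold, the lipase gene Abhd4 2.70-fold, the translesion polymerase gene Polk 2.05-fold and the excision nuclease gene Ercc5 1.8-fold. Ddit4l was not above background in any control and was at least 2.85-fold higher after irradiation. Against these, the damage recognition gene Ddb2 fell by 0.56, Ddit4, which restrains mTOR, by 0.68, and the glutaminase gene Gls2 by 0.79 on its brightest probe only (the other was at -0.12, adjusted p = 0.726). The growth arrest gene Gadd45a (-0.07) and the ribonucleotide reductase subunit Rrm2b (-0.09) were not called. Gls2 was not called without irradiated replicates 3 and 4 (-0.68, adjusted p = 0.0605). Gls2 was above background on 1 of the 4 irradiated arrays.

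**Figure D2:**
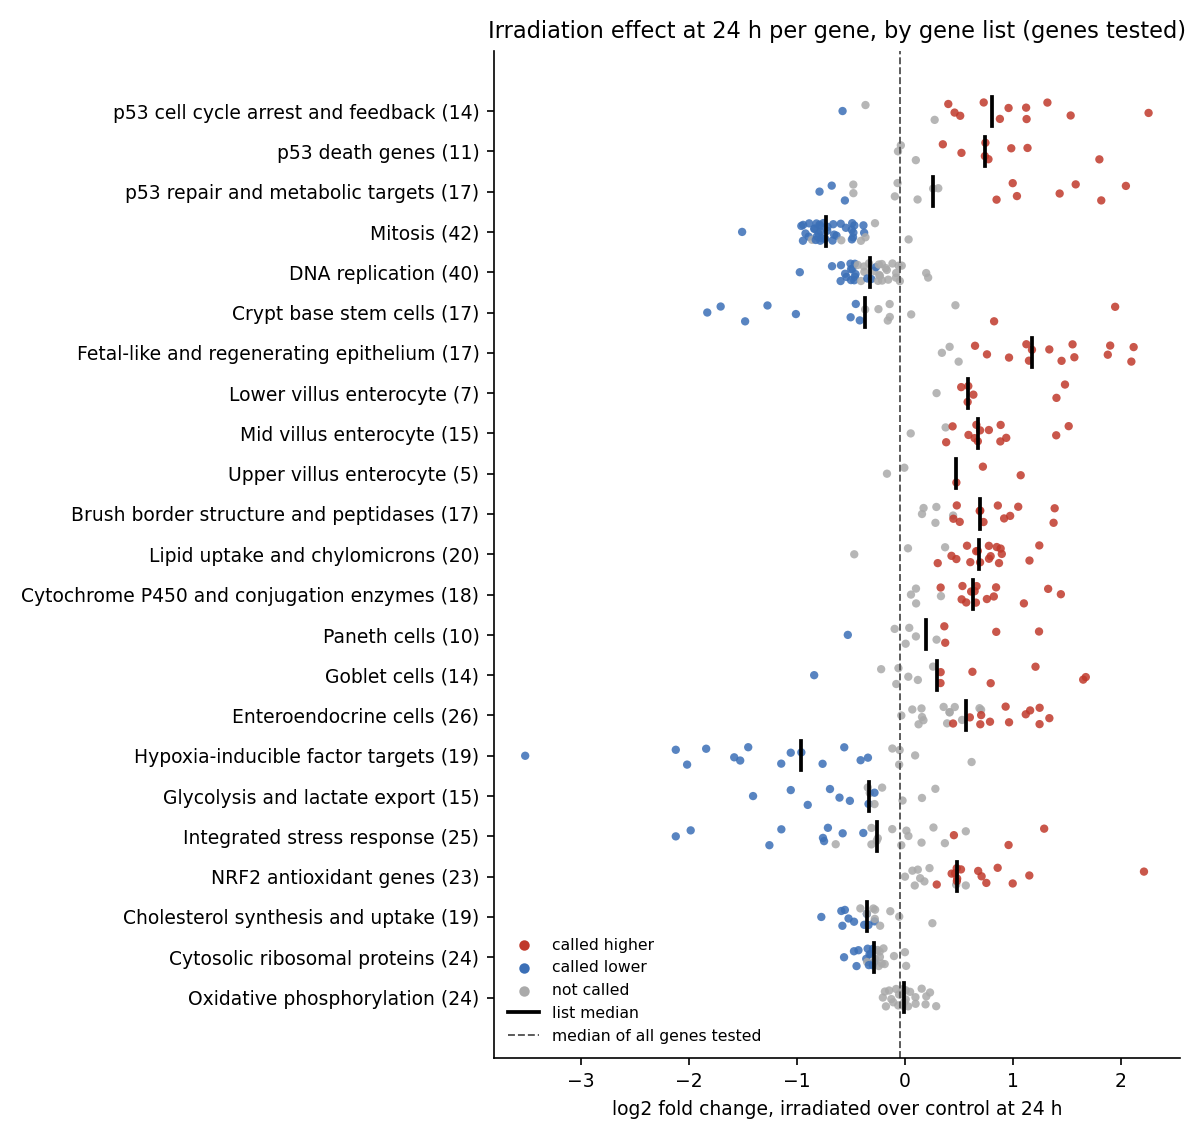
Log2 fold change at 24 h (horizontal axis) of every tested gene of 23 gene lists (vertical axis, number of genes in brackets). Points are genes, black bars list medians, and the dashed line is the median of all genes tested, -0.04. The hypoxia-inducible factor targets lie lowest, with a median of -0.96, and the fetal-like genes highest, with a median of 1.18.

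Genes of mitosis were lower as a group. Of 42 tested, 36 fell and 0 rose (median -0.73), and 27 fell without irradiated replicates 3 and 4. Their mean level was 8.18 to 8.35 on the control arrays and 7.57 to 7.66 on the irradiated arrays, so no array overlapped. Cdc25c, the phosphatase that opens entry into mitosis, stood at 7.42, 7.22, 7.2 and 7.27 on the control arrays and 6.14, 6.51, 5.12 and 5.30 on the irradiated arrays. It fell by 1.51 (SE 0.30, adjusted p = 0.000855), and irradiated replicates 3 and 4 were the lowest. Cyclin B1 (Ccnb1) fell by 0.66, the topoisomerase gene Top2a by 0.76, the spindle gene Nusap1 by 0.94 and the chromosomal passenger gene Cdca8 by 0.96. The centromeric histone gene Cenpa fell by 0.89 with one of the smaller errors of the group (SE 0.09), from 10.12, 10.14, 10.20 and 10.09 to 9.21, 9.32, 9.25 and 9.21. Ccnb2 was not above background after irradiation, and its level there gave no bound on the fold. Among the 6 genes not called, Ect2, a cytokinesis factor, was at 0.03 (adjusted p = 0.852), and at -0.55 with median scaling. Cdc25c, Cdca8 and Ccnb2 were not called without irradiated replicates 3 and 4 (-0.95, -0.78 and -0.79, adjusted p = 0.0543, 0.0769 and 0.0769). Cdc25c was above background on 2 of the 4 irradiated arrays.

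Many late cell cycle promoters carry a cell cycle homology element (CHR, bound by the MuvB complex), which reads TTTGAA or TTCGAA, and the RefSeq promoter windows of these genes were searched for it on both strands. The window held 250 bases before and 50 after the annotated start (GRCm38.p6). Of 37 mitosis genes with a window under their current symbol 28 (75.7%) held a CHR, as did 22 of the 31 that fell, against 21.7% of 27025 genes with a window and 17.0% of the 6888 tested genes that could be matched. TTCGAA reads the same on both strands, and neither form contains any of the other motifs searched. Genes on 1 chromosome were left out before sequences to print were chosen, here and below. The 250 bases before the start of Kif11 (spindle motor; fell by 0.84), Espl1 (separase; fell by 0.72) and Cdk1 (the mitotic kinase, listed on the array as Cdc2a; fell by 0.67) are printed because these were, of the rest, the mitosis genes that fell with smallest p, 1 annotated start and a CHR before it. They lie at chr19:37376132-37376381 (plus strand), chr15:102296043-102296292 (plus strand) and chr10:69352913-69353162 (minus strand), and capitals mark the CHR or, where it lies on the other strand, its reverse complement TTCAAA. The fall of Cdk1 rests on its brightest probe. Its other probes were at 0.35 and 0.17 and not called. Espl1 was above background on 1 of the 4 irradiated arrays.
Kif11 promoter: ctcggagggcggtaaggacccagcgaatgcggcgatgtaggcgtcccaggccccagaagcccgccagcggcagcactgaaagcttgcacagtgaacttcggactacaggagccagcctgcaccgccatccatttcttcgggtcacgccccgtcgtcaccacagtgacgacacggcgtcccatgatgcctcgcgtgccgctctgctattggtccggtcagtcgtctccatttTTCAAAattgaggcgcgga
Espl1 promoter: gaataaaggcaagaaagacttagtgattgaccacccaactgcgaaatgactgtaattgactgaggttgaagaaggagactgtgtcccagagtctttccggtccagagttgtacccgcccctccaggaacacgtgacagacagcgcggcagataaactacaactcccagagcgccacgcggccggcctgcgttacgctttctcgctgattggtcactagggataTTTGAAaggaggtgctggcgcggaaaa
Cdk1 promoter: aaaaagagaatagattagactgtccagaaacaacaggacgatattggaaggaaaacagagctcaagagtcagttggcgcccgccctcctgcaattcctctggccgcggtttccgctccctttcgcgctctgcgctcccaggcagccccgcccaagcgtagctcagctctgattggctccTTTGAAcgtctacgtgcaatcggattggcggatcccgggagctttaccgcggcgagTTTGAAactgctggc

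In the 3 sequences the CHR nearest to the start begins 19, 27 and 15 bases before it. A match of letters does not show that a protein binds there. The mitosis list was chosen by function, so a share above that of all genes does not bear on the fall.

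Among 40 DNA replication genes tested, 17 fell and 0 rose (median -0.32), and 8 fell without irradiated replicates 3 and 4 or with a covariate for detected probes. Tk1, thymidine kinase of the salvage pathway, stood at 9.07, 8.90, 9.19 and 9.11 on the control arrays and 8.10, 8.07, 8.0 and 8.20 on the irradiated arrays and fell by 0.97 (SE 0.10, adjusted p = 2.00e-07). Rfc3, a subunit of the clamp loader, fell by 0.59, the primase gene Prim1 by 0.46 and the helicase subunit Mcm3 by 0.46. Pola1, a polymerase subunit, was not above background after irradiation. Several central genes were not called, among them the sliding clamp Pcna (-0.17, adjusted p = 0.367), Mcm2 (-0.03, adjusted p = 0.874) and the ribonucleotide reductase subunit Rrm2 (-0.05, adjusted p = 0.785). Tyms, which makes thymidylate, counts among the lower genes through its brightest probe (-0.50), and 2 other probes were called lower, but 1 further probe was called higher (0.59), so its direction is uncertain. Mcm3, Tyms and Pola1 were not called without irradiated replicates 3 and 4 (-0.40, -0.51 and -0.61, adjusted p = 0.0771, 0.0687 and 0.108). Pola1 was also not called without control replicate 4 (-0.55).

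Promoters of S-phase genes often bind E2F factors. An E2F motif, written as TTCCCGCC, TTTCCCGC, TTTGGCGC or TTTCGCGC and searched on both strands (the first 2 can overlap), was found in 16 of 33 replication genes with a window (48.5%), in 8 of the 14 that fell, in 1 of 37 mitosis genes (2.70%), and in 4.0% of all 27025 genes and 7.52% of the 6888 matched tested genes. The upstream 250 bases of Rfc3, at chr5:151651209-151651458 (minus strand), and Prim1, at chr10:128014965-128015214 (plus strand), are shown by the same choice, with the E2F motif in capitals.
Rfc3 promoter: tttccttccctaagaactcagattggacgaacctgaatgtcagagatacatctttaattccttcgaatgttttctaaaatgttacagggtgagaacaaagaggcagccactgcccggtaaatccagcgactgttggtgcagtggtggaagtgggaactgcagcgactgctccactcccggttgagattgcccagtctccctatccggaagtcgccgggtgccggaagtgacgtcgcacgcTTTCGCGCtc
Prim1 promoter: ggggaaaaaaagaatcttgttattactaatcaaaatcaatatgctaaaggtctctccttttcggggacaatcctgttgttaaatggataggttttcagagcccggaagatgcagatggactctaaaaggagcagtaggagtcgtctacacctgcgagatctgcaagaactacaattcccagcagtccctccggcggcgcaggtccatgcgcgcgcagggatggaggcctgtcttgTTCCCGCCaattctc

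These motifs begin 10 bases (Rfc3) and 15 bases (Prim1) before the annotated start. The replication list too was chosen by function, so its share of motifs does not bear on the fall.

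Crypt base genes split. Of 17 tested 8 fell and 2 rose (median -0.37; 7 and 2 without replicates 3 and 4). Lgr5, the R-spondin receptor that marks stem cells, stood at 8.35, 8.13, 8.10 and 8.01 on the control arrays and 6.70, 6.63, 6.45 and 6.88 on the irradiated arrays. The lowest control was above the highest irradiated sample by more than 1 unit, and the gene fell by 1.48, which is 2.79-fold (SE 0.13, adjusted p = 1.76e-08). Olfm4, a secreted glycoprotein of the crypt base, fell by 1.27, from 11.33, 11.05, 11.28 and 11.23 to 9.95, 9.87, 9.96 and 10.04. Clca4, a chloride channel accessory gene, fell by 1.83, neuritin (Nrn1) by 1.71 and the BMP co-receptor gene Rgmb by 1.01. Axin2, a feedback target of Wnt signalling, fell by 0.46. Sox9 and Ephb2, which are also Wnt-regulated, were not called (-0.14 and -0.14). The call of Rgmb was lost without control replicate 1, control replicate 2, irradiated replicate 3 or irradiated replicate 4 (-0.88, -0.95, -0.89 and -1.0), and 1 of its 2 other probes was not called (-0.52). Rgmb was not called without irradiated replicates 3 and 4 (-0.81, adjusted p = 0.211). Nrn1 was above background on 2 of the 4 irradiated arrays.

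Ascl2, a transcription factor that stem cells need and that Wnt signalling drives, went the other way from Lgr5. It stood at 5.86, 6.15, 5.88 and 5.85 on the control arrays and 7.64, 8.18, 8.09 and 7.62 on the irradiated arrays, every irradiated value above every control, and rose 3.85-fold (1.95 log2 units, SE 0.14, adjusted p = 1.44e-09). The adhesion receptor gene Cd44 rose by 0.83 on its brightest probe and was called on 2 of its 5 other probes. Dmbt1 and Aqp4, a mucosal scavenger receptor and a water channel, are no members of the list but gave some of the smallest p-values of all falls. Dmbt1 fell by 1.40 (SE 0.10), from 11.39, 11.32, 11.34 and 11.19 to 9.91, 9.78, 9.99 and 9.99, and Aqp4 by 1.45 (SE 0.12).

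Genes of the fetal-like, regenerating epithelium had the highest median of the 37 gene lists. Of 17 tested 14 rose and 0 fell (median 1.18), and 15 rose without replicates 3 and 4. Their mean level was 6.78 to 6.90 on the control arrays and 7.96 to 8.17 on the irradiated arrays. Ly6a, the surface antigen Sca-1, stood at 6.50, 6.19, 6.71 and 6.59 on the control arrays and 8.71, 8.75, 8.46 and 8.54 on the irradiated arrays, with a gap of more than 1 unit between the groups, and rose 4.34-fold (2.12 log2 units, SE 0.12, adjusted p = 7.94e-11). Anxa3 and Anxa1, membrane-binding annexins, rose 4.28-fold and 3.68-fold. Il1rn, the interleukin 1 receptor antagonist, rose 3.73-fold on its brightest probe, where another probe was called at 0.75 and one more was not. Il1rn was above background on 2 of the 4 control arrays. The cornified envelope gene Sprr1a (2.53-fold), mesothelin (Msln, 2.93-fold) and the tetraspanin-like Tm4sf4 (2.97-fold) rose with them. Gja1, connexin 43, was above background in 2 irradiated samples and in no control. Its irradiated mean was 1.83-fold above the detection bound of the controls. That mean includes levels below background, so the fold is not a firm lower limit. Il33 (0.50, adjusted p = 0.0621) and Krt7 (0.41, adjusted p = 0.136) were not called. Il33 passed at 0.66 without irradiated replicate 4.

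Among ligands of the EGF receptor, amphiregulin (Areg) had the smallest p of all rises. It stood at 8.48, 8.48, 8.52 and 8.44 on the control arrays and 10.67, 10.71, 10.74 and 10.86 on the irradiated arrays, spreads of less than 0.3 units about means more than 2 units apart, and rose 4.81-fold (2.27 log2 units, SE 0.12, adjusted p = 5.46e-11). Betacellulin (Btc) rose 2.36-fold and heparin-binding EGF (Hbegf) 1.69-fold. These were the 3 rises among 8 tested ligands and regulators, whose median was 0.15. The receptor gene Egfr was not called (-0.17, adjusted p = 0.592), though 1 of its 3 other probes was lower by 0.52 (adjusted p = 0.0120). Of 13 YAP targets on the array only 6 were tested, and 3 rose and 1 fell. The matricellular gene Ctgf and tissue factor (F3) were in no control above background. Their irradiated means were 1.87-fold and 2.0-fold above the detection bound of the controls. Crim1, a membrane protein gene, was the member that fell, by 0.65, and its call was lost without control replicate 1, control replicate 2, control replicate 3, irradiated replicate 3 or irradiated replicate 4 (-0.59, -0.62, -0.65, -0.49 and -0.56). Crim1 was not called without irradiated replicates 3 and 4 (-0.28, adjusted p = 0.477). Crim1 was above background on 2 of the 4 irradiated arrays. Ctgf and F3 were above background on 3 irradiated arrays each, so their folds are not firm lower limits.

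**Figure D3:**
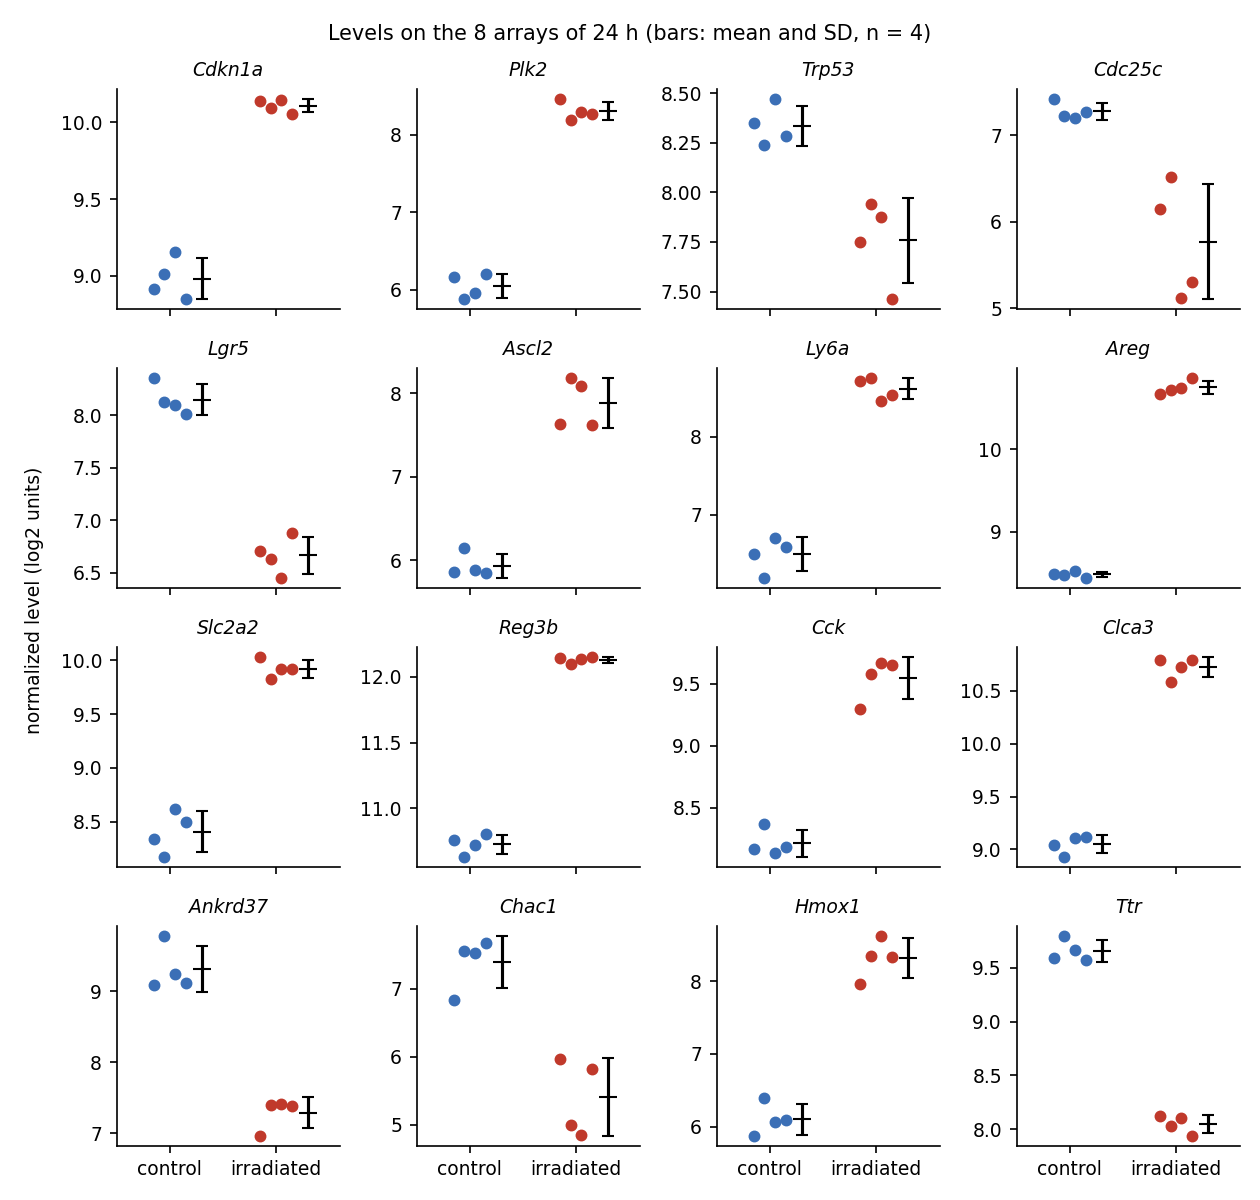
Normalized level (log2 units, separate vertical axes that do not start at 0) of 16 genes on the 8 arrays at 24 h, with mean and SD of each group. In all 16 the values of control (blue) and irradiated (red) samples do not overlap, and Lgr5 and Ascl2 move in opposite directions.

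Absorptive enterocytes change their transcripts along the villus, and genes of each zone were higher after irradiation. In the lower villus list 6 of 7 rose, in the mid villus list 13 of 15 and in the upper villus list 3 of 5, with medians of 0.59, 0.67 and 0.48 and no fall in any. Without replicates 3 and 4 the counts were 5, 10 and 2, and with median scaling 2, 3 and 1, where all 3 medians stayed above 0 (0.30, 0.28 and 0.14). Reg3b, an antimicrobial lectin of the lower villus, stood at 10.76, 10.63, 10.72 and 10.80 on the control arrays and 12.14, 12.10, 12.13 and 12.15 on the irradiated arrays. It rose 2.64-fold, and the epithelial cytokine gene Il18 rose 2.79-fold. The glucose transporter gene Slc2a2 stood at 8.34, 8.17, 8.62 and 8.50 on the control arrays and 10.03, 9.83, 9.92 and 9.91 on the irradiated arrays and rose 2.86-fold (1.52 log2 units, SE 0.12, adjusted p = 5.02e-09). The peptide transporter gene Slc15a1 rose 2.64-fold and the fatty acid binding protein gene Fabp1 1.71-fold. In the upper villus list adenosine deaminase (Ada, 0.72), apolipoprotein A-IV (Apoa4, 0.48) and the lipid-regulating transcription factor Creb3l3 (1.07) rose. Apoa4 was not called without control replicate 1, control replicate 2, irradiated replicate 1 or irradiated replicate 3 (0.44, 0.40, 0.41 and 0.45). Apoa4 was not called without irradiated replicates 3 and 4 (0.46, adjusted p = 0.121).

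Brush border genes, which build microvilli or digest peptides on them, rose in 12 of 17 cases (median 0.69; 12 without replicates 3 and 4, 5 with median scaling). The metalloprotease genes Mep1b and Mep1a rose 2.61-fold and 1.96-fold, angiotensin converting enzyme (Ace) 2.60-fold and aminopeptidase N (Anpep) 1.58-fold. Ace stood at 6.51, 7.12, 6.53 and 6.28 on the control arrays and 8.06, 8.25, 7.78 and 7.85 on the irradiated arrays, with no overlap. Dpp4, a dipeptidyl peptidase gene, rose by 0.48 but was just below 0 with median scaling. Villin (Vil1), the actin bundler of the microvillus, rose by 0.45.

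Of 20 genes for lipid uptake and chylomicron assembly 17 rose and 0 fell (median 0.69; 12 without replicates 3 and 4, 3 with median scaling). These lists share members, such as Apoa4 and Fabp1. Apolipoprotein C-II (Apoc2), the acyltransferase gene Mogat2 and the fatty acid transporter gene Cd36 rose 2.37-fold, 2.22-fold and 1.86-fold. Of the genes that burn fatty acids 5 of 18 were higher (median 0.19, -0.33 with median scaling). The peroxisomal thiolase gene Acaa1b rose 2.11-fold. Ppara, the nuclear receptor that drives this pathway, was at -0.54 (adjusted p = 0.240) and not called.

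Cytochrome P450 and conjugation enzymes, which clear drugs and bile acids, rose in 14 of 18 cases and fell in 0 (median 0.63; 12 without replicates 3 and 4, 3 with median scaling). Cyp3a25 and Cyp3a11 rose 2.72-fold and 2.51-fold, and Cyp2j6 2.15-fold. Cyp3a11 stood at 9.0, 8.92, 8.90 and 8.79 on the control arrays and 10.21, 10.39, 10.18 and 10.14 on the irradiated arrays. Both nuclear receptors that induce these enzymes, Nr1i2 (PXR) and Nr1i3 (CAR), rose as well, by 0.81 and 0.99.

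Transcription factors of intestinal identity moved both ways. Of 20 tested 4 rose, namely Creb3l3, Nr1i3, Isx (0.93) and Nr1i2, and 6 fell (median -0.12). Without replicates 3 and 4 the counts were 5 higher and 1 lower, and 3 were lower without irradiated replicate 4 alone. Hnf4a, the nuclear receptor that drives enterocyte genes, stood at 10.15, 10.13, 10.32 and 10.42 on the control arrays and 10.09, 9.63, 9.78 and 9.74 on the irradiated arrays and fell by 0.45 (SE 0.12, adjusted p = 0.00728). Cdx1 fell by 0.59, Foxa1 by 0.64 and Elf3 by 0.66, each a factor of intestinal epithelium, though the other probes of Cdx1 and Elf3 were not called. Cdx2 was at -0.23 (adjusted p = 0.354). Hnf4a, Elf3 and Foxa1 were not called without irradiated replicates 3 and 4 (-0.40, -0.49 and -0.32, adjusted p = 0.0842, 0.171 and 0.402). Foxa1 was also not called without control replicate 1, control replicate 3, irradiated replicate 3 or irradiated replicate 4 (-0.63, -0.58, -0.46 and -0.61). Foxa1 was above background on 2 of the 4 irradiated arrays. Of keratins and desmosome genes Krt20, a keratin of mature villus cells, rose 2.54-fold as 1 of 2 among 12. Of 14 tight junction and cadherin genes 3 rose, among them Cldn4, above background in no control and at least 2.02-fold higher. The medians of both lists, 0.15 and 0.18, were below 0 with median scaling (-0.13 and -0.26).

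Secretory lineages were higher in part. Of 26 enteroendocrine genes 12 rose and 0 fell (median 0.56; 9 without replicates 3 and 4). The hormone gene Cck (cholecystokinin) stood at 8.16, 8.37, 8.13 and 8.18 on the control arrays and 9.30, 9.58, 9.67 and 9.65 on the irradiated arrays and rose 2.53-fold (1.34 log2 units, SE 0.11, adjusted p = 4.37e-09). Glucagon (Gcg), tachykinin 1 (Tac1), tryptophan hydroxylase (Tph1) and somatostatin (Sst) rose 2.37-fold, 2.37-fold, 2.23-fold and 2.17-fold. Rises thus covered peptide hormones of several cell subtypes and the serotonin enzyme. Neurog3, the factor that starts this lineage, rose by 0.60 (adjusted p = 0.00133), and Fev, a factor of serotonin cells, by 0.79. Chga, chromogranin A, rose by 0.96 with a wide error (SE 0.32, adjusted p = 0.0313), and its call was lost without control replicate 3, control replicate 4 or irradiated replicate 2 (0.84, 0.86 and 0.82). The call of Fev was lost without irradiated replicate 1 (0.62). Chga and Fev were not called without irradiated replicates 3 and 4 (1.10 and 0.75, adjusted p = 0.0758 and 0.102). Fev was above background on 3 of the 4 control arrays.

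Of 14 goblet cell genes 7 rose and 1 fell (median 0.29, -0.04 with median scaling; 4 and 1 without replicates 3 and 4). Clca3, the mucus protease gene now named Clca1, stood at 9.04, 8.93, 9.11 and 9.12 on the control arrays and 10.79, 10.59, 10.72 and 10.79 on the irradiated arrays and rose 3.19-fold. The actin-severing gene Scin and the mucus lectin gene listed as 1810010M01Rik (Zg16) rose 3.14-fold and 2.31-fold. Of the lineage factors Creb3l1 fell by 0.84, and Spdef (-0.08) and Atoh1 (-0.06) were not called. Of 10 Paneth cell genes 4 rose and 1 fell (median 0.20; 2 and 0 without replicates 3 and 4). Matrilysin (Mmp7), which activates defensins, rose 2.36-fold, the ribonuclease gene Ang4 1.8-fold and lysozyme (Lyz1) 1.29-fold. Nupr1, a stress-response gene, fell by 0.53. Lyz1 and Nupr1 were not called without irradiated replicates 3 and 4 (0.35 and -0.45, adjusted p = 0.0565 and 0.0502). Creb3l1 and Atoh1 were each above background on 2 of the 4 irradiated arrays. Only 4 of 13 tuft cell genes on the array were tested, and none was called by limma, nor did any reach an unadjusted p under 0.05.

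Targets of hypoxia-inducible factor (HIF), which adapts cells to low oxygen, had the lowest median of the 37 gene lists. Of 19 tested 14 fell and 0 rose (median -0.96), and 12 fell without replicates 3 and 4. Their mean level was 8.28 to 8.51 on the control arrays and 7.40 to 7.5 on the irradiated arrays. The gene listed as 4930583H14Rik, now named Mgarp, encodes a mitochondrial protein. It stood at 8.18, 9.04, 8.52 and 8.37 on the control arrays and 4.98, 5.48, 4.72 and 4.86 on the irradiated arrays and fell by 3.52 (SE 0.27, adjusted p = 3.30e-09). It was above background on 1 of the 4 irradiated arrays, so the size of the fall is not well set, though the groups did not overlap. Among targets detected on all 8 arrays stanniocalcin 2 (Stc2) fell by 2.12 and Ankrd37 by 2.02, from 9.09, 9.78, 9.24 and 9.12 to 6.97, 7.41, 7.42 and 7.38. The oxygen sensors of the pathway, the prolyl hydroxylase genes Egln1 and Egln3, fell by 1.45 and 1.06. The collagen prolyl hydroxylase gene P4ha2 fell by 1.58, the mitochondrial gene Higd1a by 1.53, the histone demethylase gene Kdm3a (listed as Jmjd1a) by 1.15 and the angiogenic factor Vegfa by 0.76. Ak3l1 (now Ak4) was not above background in any irradiated sample and was at least 1.90-fold lower. Not called were Ndrg1 (-0.05), Pfkfb4 (0.62, adjusted p = 0.0704) and 3 others, of which Adm was below background in both groups. P4ha2, Higd1a and Egln1 were above background on 1, 2 and 2 of the 4 irradiated arrays.

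Glycolysis and lactate export shared the direction in part, with 8 of 15 genes lower and 0 higher (median -0.34; 6 without replicates 3 and 4). The lactate exporter gene Slc16a3 fell by 1.41 and the phosphofructokinase gene Pfkl by 1.06, each on the brightest of 2 probes with the other not called (-0.00 and 0.42). Slc16a3 was above background on 1 of the 4 irradiated arrays. Pdk1, which keeps pyruvate out of mitochondria, fell by 0.90, and the glucose transporter gene Slc2a1 by 0.56. Lactate dehydrogenase A (Ldha) was at -0.21 (adjusted p = 0.182).

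HIF binds sites with the core ACGTG. Of 18 HIF targets with a promoter window 14 (77.8%) held ACGTG on either strand, as did 12 of the 14 that fell, against 21.8% of all 27025 genes and 29.5% of the 6888 matched tested genes. The list was chosen as HIF targets, so a share above that of all genes does not bear on the fall. ACGTG overlaps its own reverse complement in CACGTG. The upstream 250 bases of Mgarp, at chr3:51396548-51396797 (minus strand), Ankrd37, at chr8:45999851-46000100 (minus strand), and Ero1a (listed as Ero1l, an oxidase of protein folding that fell by 0.96), at chr14:45318573-45318822 (minus strand), are printed with the core in capitals, or CACGT where it lies on the other strand.
Mgarp promoter: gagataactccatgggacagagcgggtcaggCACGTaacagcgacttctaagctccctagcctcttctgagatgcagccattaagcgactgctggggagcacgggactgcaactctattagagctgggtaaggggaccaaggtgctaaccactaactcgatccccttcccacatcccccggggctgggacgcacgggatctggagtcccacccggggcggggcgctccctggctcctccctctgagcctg
Ankrd37 promoter: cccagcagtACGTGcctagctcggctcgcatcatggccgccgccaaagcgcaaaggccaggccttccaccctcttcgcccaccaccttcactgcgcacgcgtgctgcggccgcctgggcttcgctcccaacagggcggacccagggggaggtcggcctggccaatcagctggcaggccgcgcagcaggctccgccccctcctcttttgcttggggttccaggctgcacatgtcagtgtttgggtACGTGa
Ero1a promoter: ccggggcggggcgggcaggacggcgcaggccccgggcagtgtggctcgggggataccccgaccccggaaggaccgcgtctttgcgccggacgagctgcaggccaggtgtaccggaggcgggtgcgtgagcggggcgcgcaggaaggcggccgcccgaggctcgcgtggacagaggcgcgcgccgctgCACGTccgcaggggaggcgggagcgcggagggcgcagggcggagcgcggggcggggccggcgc

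Ankrd37 holds 2 cores, the nearer of them beginning 6 bases before the annotated start, while the single core of Mgarp lies 219 bases before it.

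**Figure D4:**
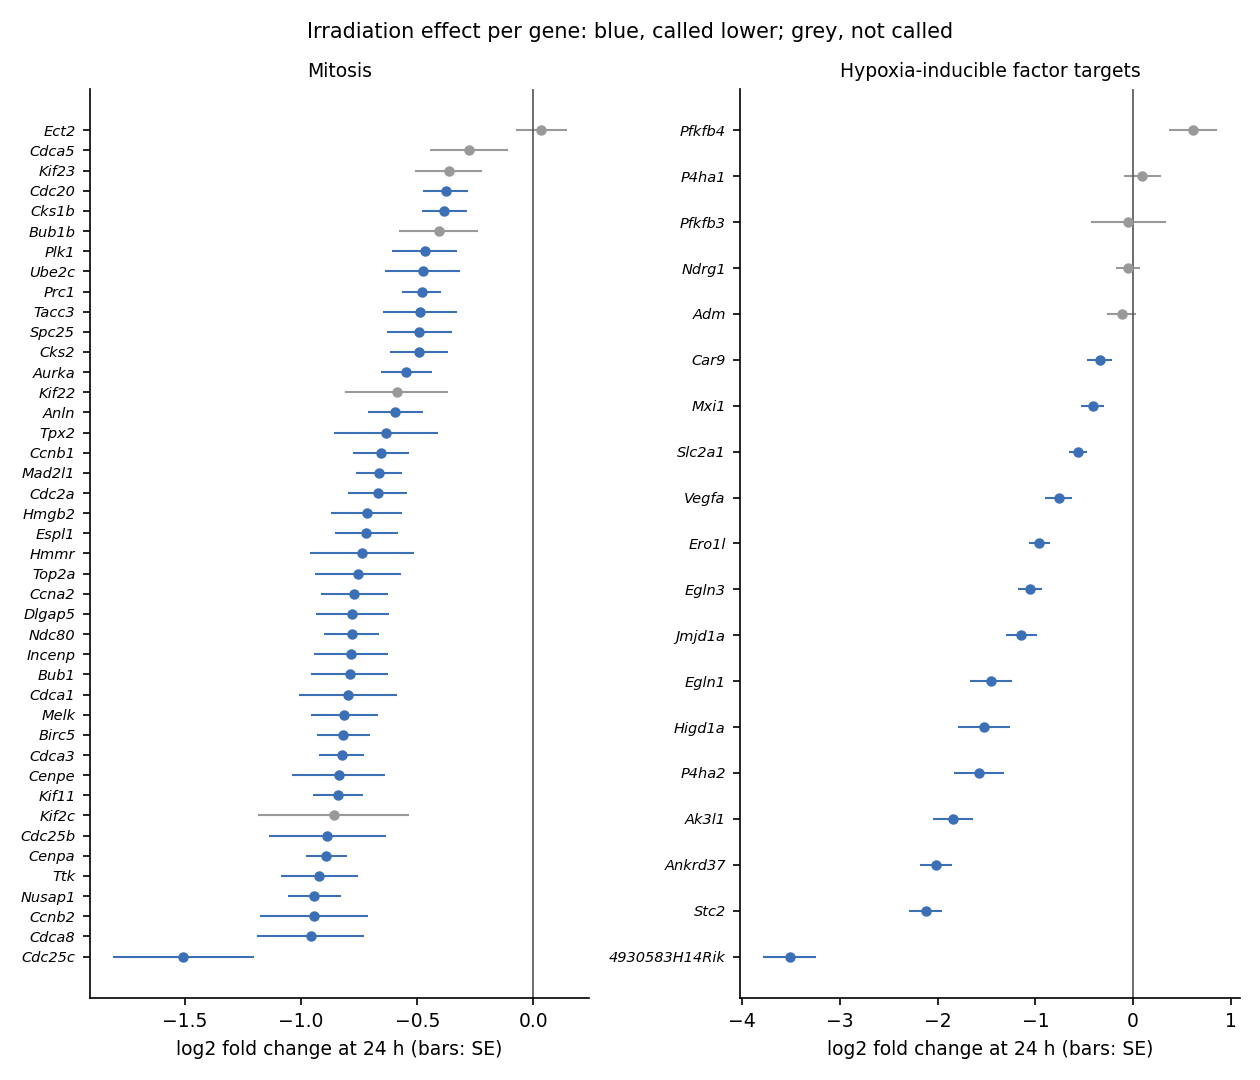
Log2 fold change at 24 h (horizontal axis, bars show SE) of 42 mitosis genes (left) and 19 targets of hypoxia-inducible factor (right), with gene names as on the array and different horizontal scales. The mitosis genes lie close together around -0.73, with Cdc25c apart at -1.51, and the targets of hypoxia-inducible factor spread from -3.52 (a gene above background on 1 irradiated array) to 0.62.

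In the integrated stress response, where ATF4 turns on amino acid synthesis and transport, 9 of 25 genes fell and 3 rose (median -0.26; 8 and 3 without replicates 3 and 4). The lowest value of this list, -2.12, was that of Stc2, which is also counted among the HIF targets above. Chac1, which degrades glutathione, stood at 6.83, 7.55, 7.52 and 7.68 on the control arrays and 5.97, 5.0, 4.85 and 5.82 on the irradiated arrays and fell by 1.98 (SE 0.27, adjusted p = 1.03e-05). The irradiated values spread by more than 1 unit but stayed below every control. Chac1 was above background on 1 of the 4 irradiated arrays. Serine synthesis fell with it, as Psph by 1.25 and Psat1 by 0.75, and so did Atf5, by 1.14, the folate enzyme gene Mthfd2, by 0.71, and asparagine synthetase (Asns), by 0.58. Atf4 itself was not called (-0.25, adjusted p = 0.440). The probes of Ddit3, which counts among the rises through its brightest, were called in opposite directions, 1.29 and -0.84. Psph was above background on 3 of the 4 irradiated arrays. Of 12 endoplasmic reticulum chaperone genes 1 rose, Dnajb9, and 1 fell, Hsp90b1, with values of 0.42 and -0.29. The fall was not called without control replicate 3 (-0.26). Hsp90b1 was not called without irradiated replicates 3 and 4 (-0.31, adjusted p = 0.0642).

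NRF2 targets, which protect against oxidants, rose in 14 of 23 cases and fell in 0 (median 0.48; 13 without replicates 3 and 4, 3 with median scaling). Heme oxygenase 1 (Hmox1) stood at 5.88, 6.39, 6.06 and 6.09 on the control arrays and 7.96, 8.35, 8.63 and 8.33 on the irradiated arrays and rose 4.64-fold (2.21 log2 units, SE 0.20, adjusted p = 2.53e-08). The gap between the groups was more than 1.5 units. Gclc, the catalytic subunit of glutathione synthesis, rose 2.22-fold, sulfiredoxin (Srxn1) 1.81-fold and the quinone reductase Nqo1 1.69-fold. The cystine transporter gene Slc7a11 was at 0.56 (adjusted p = 0.110) and not called, but passed at 0.86 without irradiated replicate 3.

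Cholesterol synthesis genes fell in 10 of 19 cases and rose in 0 (median -0.35), but in only 3 without replicates 3 and 4. Lanosterol synthase (Lss) fell by 0.77, Nsdhl by 0.59, squalene epoxidase (Sqle) by 0.58 and farnesyl diphosphate synthase (Fdps) by 0.52. Nsdhl was not called without irradiated replicates 3 and 4 (-0.55, adjusted p = 0.0886). The CCAAT box, a site of the factor NF-Y, stood on either strand in the windows of 14 of 14 of these genes that had one, against 41.1% of all 27025 genes and 43.3% of the matched tested genes. In the other lists searched the share ran from 33.3% (ribosomal proteins, 6 of 18) to 73.0% (mitosis, 27 of 37). It was 66.7% (8 of 12) in the p53 arrest list. These lists were chosen by function, so their shares of motifs do not bear on the direction of change. Fads1, a desaturase of polyunsaturated fatty acids outside the list, was among the falls with the smallest p. It stood at 10.99, 10.99, 11.23 and 11.12 on the control arrays and 9.71, 9.85, 9.78 and 9.82 on the irradiated arrays, with no overlap, and fell by 1.29 (SE 0.10, adjusted p = 3.30e-09).

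Cytosolic ribosomal protein genes shifted by small amounts in 1 direction. Of 24 tested 12 fell and 0 rose (median -0.29). The count was 4 without replicates 3 and 4 and 7 with the covariate. With median scaling the list's median was -0.53 beside -0.44 for all genes. Rps6 fell by 0.47, Rpl22 by 0.56 and Rpl4 by 0.45. Of 14 ribosome biogenesis genes 4 fell (2 without replicates 3 and 4), with dyskerin (Dkc1) lowest at -0.99 and Npm1 at -0.35. Myc, which drives this programme, was at 0.02 (adjusted p = 0.955), and at -0.57 with median scaling. The other probe of Rpl4 was not called (-0.36). Rpl4, Dkc1 and Npm1 were not called without irradiated replicates 3 and 4 (-0.44, -0.54 and -0.35, adjusted p = 0.0613, 0.309 and 0.0803). Dkc1 was above background on 2 of the 4 irradiated arrays. Dkc1 was also not called without irradiated replicate 4 (-0.77), and Rps6 was not called without control replicate 3 or irradiated replicate 2 (-0.42 and -0.39). None of 24 oxidative phosphorylation genes was called by limma (1 reached an unadjusted p under 0.05), and their median was -0.01.

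Among immediate early genes 4 of 12 rose and 0 fell (median 0.26, -0.09 with median scaling), with the transcription factor genes Egr1 and Fos at 0.89 and 0.73. Of 14 cytokine and NF-kB genes 2 rose and 1 fell. The chemokine gene Cxcl16 rose 4.00-fold, from 6.68, 7.13, 6.96 and 6.92 to 8.84, 9.12, 8.92 and 8.81. Ccl28, a mucosal chemokine, fell by 1.21, from 8.93, 8.82, 8.89 and 8.83 to 7.68, 7.70, 7.77 and 7.49. Of 14 interferon-stimulated genes tested 3 rose and 0 fell (median 0.12, -0.08 with median scaling), led by Oasl1 at 0.84. Without control replicate 1 only 1 of them was called, and Oasl1 was not (0.66). Isg15, Ifit1 and Irf7 were not detected on enough arrays to be tested.

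Outside these lists, some of the smallest p-values belonged to genes of varied roles. Mbl2, a mannose-binding lectin of innate immunity, was in no control above background, with values of 7.77, 7.90, 7.5 and 7.55 after irradiation, and was at least 5.33-fold higher. Crip2, a LIM domain gene, was at least 3.80-fold higher by the same reasoning. The alanine aminotransferase gene Gpt1 (listed under this older symbol) rose 2.63-fold, the autophagy gene Atg9b 3.44-fold, the actin gene Acta1 3.57-fold and the phospholipid acyltransferase gene Mboat1 2.45-fold. Among the falls, transthyretin (Ttr), a hormone carrier, stood at 9.59, 9.80, 9.67 and 9.57 on the control arrays and 8.12, 8.03, 8.11 and 7.94 on the irradiated arrays and fell by 1.61. Slc16a12, a transporter of the monocarboxylate family, fell by 1.77. Slc16a12 was above background on 2 of the 4 irradiated arrays.

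The effect at 24 h was next compared with the mean of the effects at 48 and 96 h, each taken against controls of its own time and on its own chip, so time and chip cannot be told apart. The difference of effects was called for 388 genes in the higher direction (3.59%) and 219 in the lower direction (2.03%). The count of 219 was 112, 121 and 126 without control replicate 1, control replicate 3 or irradiated replicate 3, and without irradiated replicates 3 and 4 the counts were 248 and 76. Called lower were 17 of 42 mitosis genes and 5 of 17 crypt base genes, and 4 of 40 replication genes, which became 9, 4 and 2 without replicates 3 and 4. The mitosis count was 10 without control replicate 1 and 11 without irradiated replicate 3. Median effects of the mitosis list were -0.73 at 24 h, -0.33 at 48 h and 0.11 at 96 h. For Cenpa the difference was -0.82 (SE 0.11, adjusted p = 6.50e-05), for Tk1 -0.95 (SE 0.12, adjusted p = 6.01e-05) and for Olfm4 -0.92 (SE 0.12, adjusted p = 6.91e-05). Aqp4 (-1.11) and Nrn1 (-1.42) also differed in this direction. None of the 19 HIF targets was called by limma, although 8 reached an unadjusted p under 0.05, with median effects of -0.96, -0.73 and -1.16 at the 3 times.

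In the higher direction, Ascl2 differed by 1.62 (SE 0.17, adjusted p = 7.55e-06) and Areg by 1.12 (SE 0.15, adjusted p = 6.50e-05). Of the 3 villus lists 3 of 7, 3 of 15 and 1 of 5 genes differed, and of the p53 arrest list 4 of 14, among them Cdkn1a at 0.60 (SE 0.14, adjusted p = 0.0141). The effect of Cdkn1a was 1.13 at 24 h, 1.28 at 48 h and -0.23 at 96 h, so it was not larger at 24 h than at 48 h. Its difference was not called without irradiated replicates 3 and 4 (0.61, adjusted p = 0.0642). Median effects at 24, 48 and 96 h were 0.59, 0.45 and 0.11 in the lower villus list. They were 0.67, 0.57 and 0.11 in the mid villus list and 0.48, 0.88 and -0.12 in the upper. In the p53 arrest list they were 0.80, 0.69 and 0.24. The list counts were 1, 2, 1 and 2 without replicates 3 and 4, and each was 0 with median scaling. The smallest p-values in this direction, however, were those of genes outside the lists. They were the chemokine receptor gene Cxcr5, the kinase genes Stk10 and Vrk2, the poly(A)-binding protein gene Pabpc2 and stannin (Snn). Cxcr5 stood at 5.34, 5.78, 5.46 and 5.33 on the control arrays and 8.45, 7.95, 8.66 and 8.41 on the irradiated arrays and the difference of its effects was 2.44 (SE 0.26, adjusted p = 7.55e-06). Stk10 stood at 5.03, 5.67, 5.29 and 5.44 on the control arrays and 7.65, 8.43, 7.95 and 7.64 on the irradiated arrays with a difference of 2.41 (SE 0.24, adjusted p = 7.55e-06). Pabpc2 was in no control above background and at least 2.94-fold higher at 24 h. Cxcr5 and Stk10 were above background on 3 of the 4 control arrays each.

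**Figure D5:**
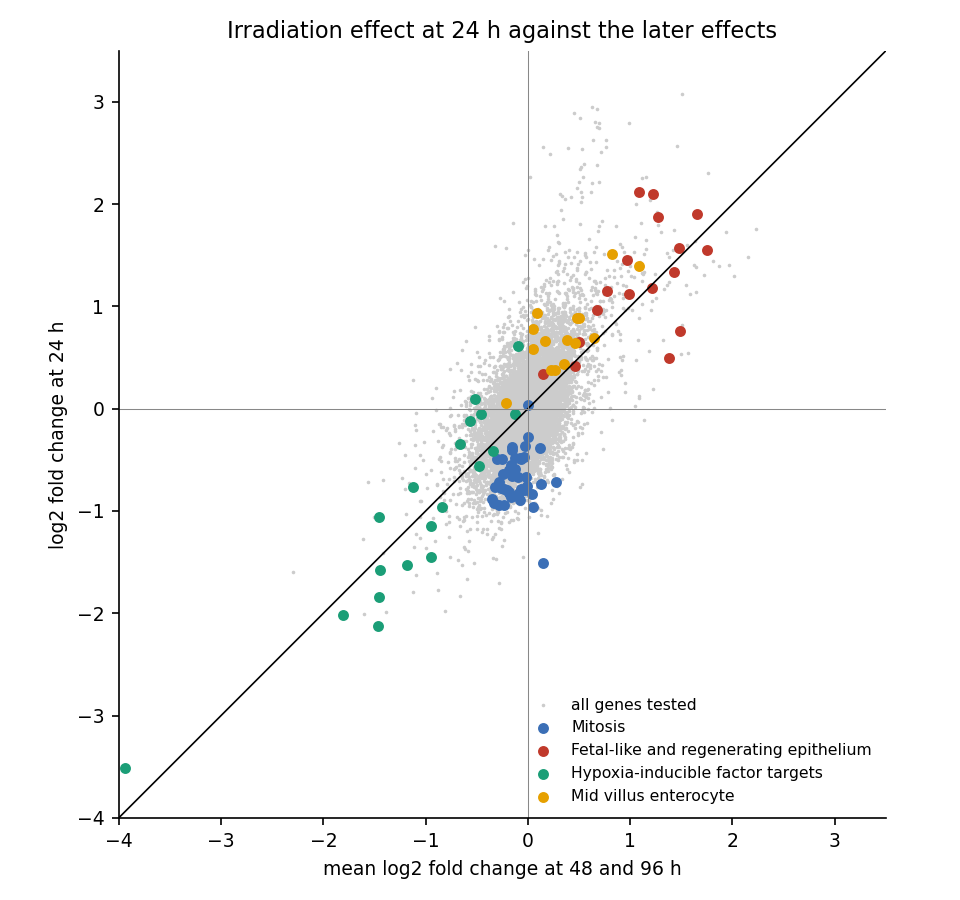
Log2 fold change at 24 h (vertical axis) against the mean of the log2 fold changes at 48 and 96 h (horizontal axis) for 10798 genes. The line marks equal effects. Mitosis genes lie below it with later effects near 0, targets of hypoxia-inducible factor lie near it, and a group of genes outside the lists rises by more than 2 units at 24 h, with later effects under 1.

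Second probes gave a check on rises at 24 h, but only for genes that had other detected probes. Cxcr5, Stk10, Vrk2, Pabpc2 and Snn had none, so their rises were not checked in this way. The same holds for Ascl2, Areg, Ly6a, Hmox1 and Mbl2. Of genes that were called and at least 2-fold higher at 24 h, 62 had other detected probes. For 27 of them the effect was also called larger at 24 h than the mean later effect. Of their 35 other probes 13 were called higher (37.1%), with 24 of 35 (68.6%) above 0. For the 35 others, 32 of 45 other probes were called higher (71.1%) and 44 of 45 (97.8%) were above 0. The difference between these shares was not tested, since probes of a gene are not independent. Among genes at least 2-fold lower the shares were 6 of 8 (75.0%) and 14 of 23 (60.9%). Over all 2878 genes with several detected probes, 10 had probes called in opposite directions at 24 h. These were Tyms, Ddit3, Acox3, Asah3, Odf2, Prmt7, Rbm10, Vldlr, Zfp2 and 2810453I06Rik, so their direction is uncertain. The brightest probes of Tyms and Ddit3 are counted in the lists above.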

How the data were processed

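RNA of the 24 samples was labelled with biotin and hybridised to Illumina mouse BeadChips, per the labels' protocols. The deposited table gives, per the file headers, the mean bead signal of each probe (intensity, not normalized) and a detection p-value. A second table of the authors' processed intensity values was used as an alternative. Its columns share one distribution after sorting. Which steps made it was not given in the sources used here.

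Here limma 3.58.1 corrected the background from the detection p-values and quantile normalized the arrays (neqc, offset 16, R 4.3.3). Of 25697 probes 15056 were detected at p under 0.05 on at least 4 arrays. Each of 10798 symbols kept its brightest probe. Group means were fitted over all 24 arrays (lmFit, eBayes), p-values were adjusted over all genes by the Benjamini-Hochberg method, and a gene was called at an adjusted p under 0.05. "Rose" and "fell" are used of called genes only. Where no array of a group detected a gene, that group has only a bound, taken from the lowest signal among detected probes or its own, whichever is higher. The mean of the other group includes any of its arrays below background. The number of arrays limits the precision. Steps were tested on simulated data.

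The members and gene lists were chosen with earlier results of these data known. Named genes were those of smallest p in each direction and in each list, genes whose probes disagreed, and a fixed set, of which no probe was found for Clu, Mki67, Muc2 and Alpi, and Dclk1 was not detected on enough arrays. Other list members were picked as examples after their values were seen. Alternatives changed the background correction, scaling, filter, variance model, array weights, probe rule, covariate, arrays in the fit and threshold, and left out arrays. Promoter sequences are those of RefSeq (GRCm38.p6), matched by current symbol.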

Additional observations from a re-analysis of the deposited data

Results flagged for a closer look

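In 20 of 406 groups of 4 samples, 1 sample lay apart from the other 3 by more than the share of the range that Dixon's test allows, and chance alone flags about 1 in 20 groups. Among controls these were Abhd4 in control replicate 4 (6.06, next value 5.94), Ascl2 in control replicate 2 (6.15, next value 5.88), Asns in control replicate 1 (10.44, next value 10.56), Atf5 in control replicate 2 (10.77, next value 11.08), Ddit4l in control replicate 2 (5.13, next value 4.64), Dnajb9 in control replicate 2 (9.79, next value 9.67), Gpt1 in control replicate 3 (7.88, next value 7.71), Ppara in control replicate 2 (6.91, next value 6.51), Sprr1a in control replicate 1 (6.26, next value 6.92) and Stc2 in control replicate 3 (9.94, next value 9.77), on the log2 scale. Among irradiated samples they were Acaa1b in irradiated replicate 3 (10.51, next value 10.58), Ankrd37 in irradiated replicate 1 (6.97, next value 7.38), Anxa1 in irradiated replicate 3 (7.32, next value 7.55), Apoc2 in irradiated replicate 3 (9.74, next value 9.47), Atf4 in irradiated replicate 2 (11.03, next value 11.30), Cd8a in irradiated replicate 4 (5.72, next value 6.94), Cdca8 in irradiated replicate 2 (8.21, next value 7.54), Chga in irradiated replicate 2 (10.20, next value 9.64), Fas in irradiated replicate 3 (6.23, next value 6.71) and Mep1a in irradiated replicate 2 (8.84, next value 8.50).

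For 72 of the 202 genes named, limma called the log2 effect at 24 h different from the mean of the effects at 48 and 96 h. Values below are the 24 h effect minus that mean. A positive value does not show that the effect was larger at 24 h than at 48 h. Cdkn1a was at 1.13, 1.28 and -0.23 at 24, 48 and 96 h, and Gpt1 at 1.39, 1.46 and 0.54.

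More positive at 24 h than the later mean were the p53 targets Plk2 (1.15), Cdkn1a (0.60), Sesn1 (0.79), Btg2 (0.44), Psrc1 (0.66) and Abhd4 (0.82). Likewise more positive were the absorptive and brush border genes Mep1a (1.16), Dpp4 (0.77), Fabp1 (0.73), Slc2a2 (0.69), Creb3l3 (0.69) and Anpep (0.49). Likewise more positive were the secretory lineage genes Mmp7 (1.28), Fev (0.99), Gcg (0.78), Cck (0.77), Neurog3 (0.70), Clca3 (0.63), Tac1 (0.60), Ang4 (0.55), Tph1 (0.51) and Lyz1 (0.46). Likewise more positive were the fetal-like genes and EGF receptor ligands Areg (1.12), Ly6a (1.03), Anxa3 (0.87) and Anxa1 (0.61). In the whole fetal-like list 3 of 17 genes differed in this direction and 1 in the other. Its median effects were 1.18 at 24 h, 1.34 at 48 h and 0.77 at 96 h. The transcription factor gene Ascl2 differed by 1.62. Other genes in this direction were Acaa1b (0.52), Acta1 (1.11), Atg9b (0.92), Bok (0.46), Cldn4 (1.11), Crip2 (1.10), Cxcl16 (0.94), Cxcr5 (2.44), Cyp3a25 (0.93), Dnajb9 (0.59), Gpt1 (0.39), Hmox1 (1.71), Mbl2 (1.57), Pabpc2 (2.25), Snn (1.91), Stk10 (2.41) and Vrk2 (1.65). The brightest probe of Ddit3 gave 0.87, but its probes were called in opposite directions.

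More negative at 24 h were the mitosis and replication genes Cdc25c (-1.66), Cdca8 (-1.01), Cenpa (-0.82), Kif11 (-0.74), Nusap1 (-0.66), Cdc2a (-0.65), Ccnb1 (-0.50), Tk1 (-0.95), Rfc3 (-0.68) and Mcm3 (-0.64). The same direction held for the crypt base genes Nrn1 (-1.42), Clca4 (-1.17), Olfm4 (-0.92) and Lgr5 (-0.80) and for the amino acid and one-carbon genes Psph (-0.91), Psat1 (-0.60) and Mthfd2 (-0.56). Other genes in this direction were Aqp4 (-1.11), Ccl28 (-0.76), Cdx1 (-0.59), Dmbt1 (-0.81), Fads1 (-0.71), Slc16a12 (-0.89) and Ttr (-0.72). Reg3b (-0.57) rose at 24 h, and Il33 (-0.88) was not called there, and both had higher later effects. The brightest probe of Tyms gave -0.71, with probes in opposite directions at 24 h.

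Of these 72 calls 54 held when any 1 of the 8 arrays of 24 h was left out. Lost without control replicate 1 only were Cxcl16 (0.86), Ddit3 (0.82) and Lyz1 (0.42). Lost without several arrays, each left out alone, were Abhd4 (7 arrays, 0.81 to 0.86), Acaa1b (7 arrays, 0.44 to 0.56), Btg2 (3 arrays, 0.40 to 0.43), Ccnb1 (7 arrays, -0.43 to -0.52), Cdca8 (6 arrays, -0.91 to -1.05), Cdx1 (6 arrays, -0.54 to -0.60), Clca3 (7 arrays, 0.59 to 0.65), Fabp1 (5 arrays, 0.62 to 0.75), Fev (7 arrays, 0.82 to 1.04), Gpt1 (5 arrays, 0.37 to 0.38), Il33 (5 arrays, -0.72 to -0.88), Mthfd2 (5 arrays, -0.50 to -0.56), Psph (5 arrays, -0.63 to -0.95), Psrc1 (7 arrays, 0.56 to 0.71) and Tph1 (6 arrays, 0.46 to 0.50), with the values of the difference where the call was lost. Without irradiated replicates 3 and 4 together 25 calls were lost, which added Ang4 (0.48), Cdc25c (-1.10), Cdkn1a (0.61), Cyp3a25 (0.87), Mcm3 (-0.58), Reg3b (-0.58) and Tyms (-0.72) to those just named.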

How the results depend on the processing

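Of the 171 called genes named in the text, 132 could be tested under all 25 settings tried. Of these 86 were called in the same direction under every setting, and 109 under all but median scaling and the threshold of 0.01. Of all genes, 1200 were called higher and 1350 lower at 24 h. With median scaling the counts were 464 and 4921, with cyclic loess 1480 and 681, with an adjusted p under 0.01 791 and 664, with detected probes as a covariate 1023 and 788, with array weights 1508 and 1839, and without irradiated replicates 3 and 4, an alternative chosen after seeing the data, 838 and 616. Leaving out 1 array at a time gave 971 to 1188 higher and 920 to 1333 lower. For the difference from the later effects, 388 and 219 in the main analysis, median scaling gave 73 in the higher direction, cyclic loess 102 and array weights 373 in the lower direction, and leaving out both arrays 248 and 76. Leaving out 1 array gave 270 to 363 and 112 to 232. The cause of these changes was not tested, except that a stricter threshold calls fewer genes by construction.

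With median scaling the values of Bad (-0.10), Btg2 (-0.029), Dnajb9 (-0.071), Dpp4 (-0.048), Ect2 (-0.55), Myc (-0.57) and Sesn1 (-0.047) turned below 0. With the mean of all probes the difference of Cdc2a from later times turned to 0.079. The difference in detected probes (-1543) was -2061 with a detection limit of 0.01, and between -2034 and -966 without 1 array.

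With the replicate number as a block, 1197 genes were higher and 1286 lower (327 and 152 for the difference). Deviations of same-numbered arrays correlated at 0.13, 0.27, 0.03 and 0.13, and not every array correlated best with its own number, so the numbers were not taken to pair the samples. A probe dark in 1 group gives a bound only.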
